A study of Rattus norvegicus with 2 samples.

Results

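The 43 genes described here encode the lysosome, its proton pump and the core machinery of autophagy. They were listed by name and not by a rule on their signal, but with earlier results of these data known. Of these, 42 had at least 1 probe set carrying a single gene symbol, out of 14218 genes so represented on the array. The exception was Map1lc3b, whose symbol stood only on a probe set shared with a second symbol. The probe set with the highest mean of both arrays stood for each gene, and its other probe sets were set beside it.

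The cells were astrocytes cultured from the hippocampus of Sprague-Dawley rat embryos at embryonic day 18, of normal genotype in both groups. The control culture carried the vector IRES2-RFP, which encodes a red fluorescent protein, and the 5ppase culture carried 5ppase-IRES2-RFP, so both vectors encode the fluorescent protein. The series sets active calcium signalling (control) against its absence (5ppase), with 1 Affymetrix array per group. The labels do not spell out 5ppase, which commonly denotes a phosphatase that inactivates inositol trisphosphate. The labels give neither the promoter of the vectors, nor the share of cells that carried them, nor the number of animals behind each culture. With no replicates, every difference below describes these 2 arrays, no p-value can be given, and precision is limited by having only 1 array per group.

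Lysosomes are acidic organelles in which proteases, glycosidases and lipid-processing proteins break down material delivered by endocytosis and by autophagy, the pathway that encloses cytoplasm in a double membrane. A proton pump, the vacuolar ATPase, keeps them acid. The transcription factor TFEB binds the CLEAR element, an E-box found before many lysosomal genes, and calcineurin, activated by calcium leaving the lysosome through the channel encoded by Mcoln1, is known to dephosphorylate TFEB and so release it to the nucleus. Lysosomes of astrocytes are also known for calcium-dependent exocytosis.

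The median signal was 107 in control and 109 in 5ppase, and both arrays had a trimmed mean of 500.2. A signal floor was set at the 40th percentile of both arrays together (62.0, in the arbitrary units of the array), and genes were compared if both signals exceeded this floor and at least 1 of them reached the 60th percentile (208). Ratios are log2 of 5ppase over control throughout. As a measure of spread between probe sets, the ratios of 2 probe sets of the same gene were subtracted. The SD of this difference corresponds to 0.26 per probe set over 1883 genes of all signal levels. This spread leaves out variation between cultures, which 1 array per group cannot show. It also leaves out array noise that moves the probe sets of a gene together, so it is not the full error of a ratio. Astrocyte markers were lower on the 5ppase array in 7 of 10 compared genes by at least 1.5-fold, beside 5.46% of all compared genes. Among them was the intermediate filament gene Gfap (17525 and 7408, log2 ratio -1.24). Gja1 (7282 and 7656, 0.072) and S100b (3483 and 3611, 0.052) were close to equal at their brightest probe sets. The astrocyte markers Slc1a2 (24.1 and 25.7) and Gjb6 (36.8 and 8.6) were under the floor on both arrays. In a bulk culture fewer cells of a type and less RNA per cell cannot be told apart, and the part of these marker differences in the values below was not tested.

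Most of the genes differed by less than 1.5-fold between the arrays. At the brightest probe set, the genes past 1.5-fold were Tfeb, lower in 5ppase, and Scarb2, higher. At a second compared probe set, Ctsc (-0.63) and Neu1 (0.65) were past it as well. The counts below use the brightest probe set. Of the 38 compared genes, 1 was at least 1.5-fold higher in 5ppase, beside 5.25% of the 8261 genes compared on the whole array. Likewise 1 was at least 1.5-fold lower, beside 5.46%. Tfeb was also at least 2-fold lower, beside 1.42% of all compared genes, and 0 genes were at least 2-fold higher, beside 1.5%. A count of 1 in 38 past 1.5-fold each way does not exceed these background shares, so the counts by themselves are not a result about lysosomal or autophagy genes. In either direction 2 genes were past 1.5-fold, beside 10.7%. The other 36 (94.7%) lay within it, compared with 89.3% across the array. A positive ratio was found in 22 and a negative one in 16, beside 3955 and 4306 of all compared genes. The median log2 ratio was 0.023 over the 39 genes whose mean signal was above the floor, beside -0.012 over all 10255 such genes. A ratio smaller in size than the spread between probe sets of 1 gene was found in 28 of the 38 compared genes. Across the array this held for 4958 of the 8261 compared genes, so ratios of this size are not particular to the listed genes.

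**Figure D1:**
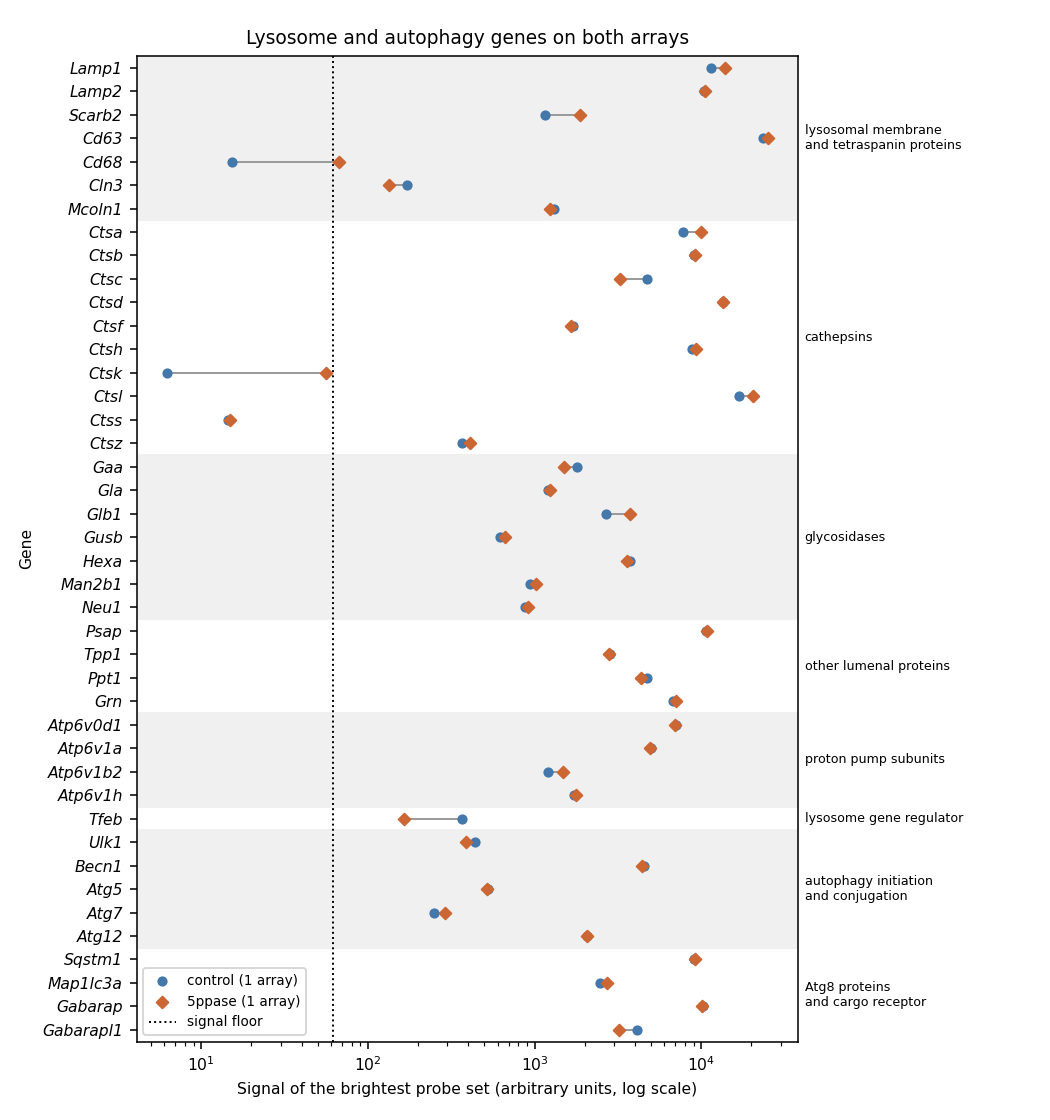
Signal of the brightest probe set of 42 genes in control (circles) and 5ppase (diamonds), on a log axis in arbitrary units and grouped by role, with the signal floor of 62.0 as a dotted line. Most pairs of points overlap, the points of Tfeb (369 and 165) and Scarb2 (1161 and 1876) stand apart, and the wide pairs of Cd68 and Ctsk lie at or under the floor on at least 1 array.

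Tfeb, the gene of the transcription factor that drives lysosomal gene expression, had the largest difference of the 38 compared genes. Its signal was 369 in control and 165 in 5ppase, a log2 ratio of -1.16. The size of this ratio was 4.5 times the spread between probe sets, but it rests on 1 probe set and on low signals. The 5ppase signal was below the 60th percentile, so the gene was no longer compared when the floor was set there. Over the 4 other scalings of the arrays the ratio ran from -1.19 to -1.11. Scarb2, the gene of a membrane protein that carries glucocerebrosidase to the lysosome, gave 1161 and 1876, a log2 ratio of 0.69, also at its only probe set. Its ratio stayed between 0.66 and 0.71 over all alternatives that gave a value. At a gene with 1 bright probe set, only the scalings and the pseudocount could change it. The promoter windows of these 2 genes are shown because they are the genes past 1.5-fold at the brightest probe set. Each window runs from 250 bases before to 50 bases after the start site of the RefSeq annotation (GRCr8), and neither holds the E-box core CACGTG.
Tfeb, chr9:20703075-20703374, minus strand: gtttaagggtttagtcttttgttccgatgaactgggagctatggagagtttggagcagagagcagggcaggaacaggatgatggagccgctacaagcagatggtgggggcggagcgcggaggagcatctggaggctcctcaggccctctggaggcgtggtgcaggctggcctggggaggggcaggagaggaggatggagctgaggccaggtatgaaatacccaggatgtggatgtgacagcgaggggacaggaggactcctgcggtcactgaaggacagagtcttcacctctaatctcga
Scarb2, chr14:15842333-15842632, plus strand: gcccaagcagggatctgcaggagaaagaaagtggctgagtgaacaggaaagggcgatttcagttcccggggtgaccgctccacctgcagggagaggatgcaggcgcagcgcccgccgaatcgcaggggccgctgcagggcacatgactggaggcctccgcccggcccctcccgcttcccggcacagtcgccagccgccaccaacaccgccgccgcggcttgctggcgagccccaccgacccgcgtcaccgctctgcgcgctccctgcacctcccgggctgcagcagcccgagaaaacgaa

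The other relatives of Tfeb in the same family differed among themselves. Tfe3 gave 989 and 1141 (log2 ratio 0.21) at its brightest probe set. Its second gave 47.0 in control, under the floor, and 98.7 in 5ppase. Mitf gave 462 and 445 (-0.054) at its brightest probe set but 325 and 135 (-1.26) at its second, so the 2 probe sets of this gene disagree. Tfec, known from macrophages, gave 203 and 62.1. Its control signal was just under the 60th percentile and its 5ppase signal just above the floor, so it was not compared, and its second probe set (53.7 and 2.2) was under the floor on both arrays. These 3 genes were named after their values were seen.

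Genes of the lysosomal membrane had a positive ratio in 4 of 5 compared genes, beside 3955 of all 8261 compared genes. Only the ratio of Scarb2 was past 1.5-fold. Lamp1 and Lamp2 encode the most abundant glycoproteins of this membrane. Lamp1 gave 11441 and 13895, a log2 ratio of 0.28, and a dim second probe set (64.6 and 78.8) gave 0.29. Lamp2 gave 10358 and 10541 (0.025), and the ratio at its second probe set was -0.079. These 2 ratios are opposite in sign and both are smaller than the spread between probe sets. Cd63, a tetraspanin of late endosomes and lysosomes, gave 23645 and 25149 (0.089, or -0.0051 under quantile normalization). Mcoln1, the lysosomal calcium channel, gave 1317 and 1234 (-0.093). It too lay within the spread between probe sets.

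Cln3 and Cd68 were dimmer. Cln3, whose loss causes juvenile Batten disease in humans, did not reach the 60th percentile on either array and was not compared. Its 3 probe sets gave 171 and 134 (log2 ratio -0.36), 157 and 106 (-0.57), and 152 and 100.3 (-0.60). All 3 were lower on the 5ppase array. Cd68, a macrophage and microglial glycoprotein, gave 15.4 in control, under the floor, and 67.1 in 5ppase, just above it, so no fold is given.

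Of the 10 cathepsins, the main lysosomal proteases, 8 were compared, all of them within 1.5-fold at their brightest probe set. Ctsl (16774 and 20548, log2 ratio 0.29) and Ctsd (13559 and 13448, -0.012) are the endopeptidases best known from most tissues, together with Ctsb (9014 and 9222, 0.033). The Ctsl difference was not seen at its second probe set, which gave 4608 and 4717 (0.034). Ctsa, the protective protein that holds beta-galactosidase and sialidase together, gave 7761 and 10033 (0.37). Ctsc, a dipeptidyl peptidase that activates granule proteases of immune cells, was lower on the 5ppase array at both of its probe sets, with 4736 and 3262 (-0.54) at the first and 3975 and 2566 (-0.63) at the second. The second value is past 1.5-fold and the first is not. Ctsh (8795 and 9374, 0.092), Ctsf (1707 and 1654, -0.046) and the carboxypeptidase Ctsz (367 and 410, 0.16) lay within the spread between probe sets.

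The 2 cathepsins that were not compared are those known from other cell types. Ctss, the cathepsin of antigen-presenting cells and microglia, gave 14.4 and 14.9. Ctsk, the collagen-degrading cathepsin of osteoclasts, gave 6.2 and 56.0. Both genes were under the floor on both arrays, so no level or ratio can be read from them. Of 18 microglial and macrophage markers on the array, 13 were also under the floor on both arrays, beside 3388 of all 14218 genes. Among the 13 were C1qa (26.5 and 42.1), Itgam (9.6 and 5.6), C1qb (32.7 and 13.1) and Tyrobp (20.1 and 1.5). Aif1 (56.1 and 71.5) and Csf1r (68.8 and 77.5) lay near the floor. The summed signal of the 18 markers was 2927 and 4615, most of it from Tmem119 (1078 and 2273) and Cd14 (1428 and 1820).

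Among 7 glycosidases, the enzymes that strip sugars from glycoproteins and glycolipids, 5 had a positive and 2 a negative ratio, beside 3955 and 4306 of all compared genes. None of the 7 was past 1.5-fold at its brightest probe set. Glb1, the beta-galactosidase that cleaves ganglioside GM1, gave 2687 and 3763, a log2 ratio of 0.49 at its only probe set. Neu1, the lysosomal sialidase held in 1 complex with Glb1 and Ctsa, gave 879 and 910 (0.049) at its brightest probe set but 212 and 334 (0.65) at its second. Whether Neu1 differed therefore depends on the probe set. Gaa, the acid glucosidase that digests glycogen, was lower on the 5ppase array at both probe sets, with ratios of -0.27 and -0.34 (799.5 and 631.8 at the second). Its ratios exceed the spread between probe sets only slightly. Hexa, the alpha subunit of hexosaminidase, gave 3718 and 3579 (-0.055), and Gla, the alpha-galactosidase, had ratios of 0.042 and -0.023 at its 2 probe sets. The mannosidase Man2b1 (939 and 1017, 0.12) and the glucuronidase Gusb (621 and 669, 0.11) completed the group.

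The 4 other lumenal proteins had ratios between -0.12 and 0.046. Psap, the precursor of the saposins that help enzymes reach their lipids, gave 10755 and 10775 (log2 ratio 0.0027). Grn, the precursor of the granulins, gave 6812 and 7034 (0.046). Tpp1, a tripeptidyl peptidase, gave 2818 and 2804 (-0.0072), and Ppt1, which removes palmitate from proteins, gave 4716 and 4343 (-0.12). All 4 lay within the spread between probe sets.

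The proton pump subunits were close to equal on both arrays. Atp6v0d1, a subunit of the membrane sector, had a log2 ratio of -0.0071. Atp6v1a, the catalytic subunit, gave 5032 and 4963 (-0.02) and 0.038 at its second probe set. Atp6v1h, a regulatory subunit, gave 1714 and 1784 (0.057). Atp6v1b2, a nucleotide-binding subunit, gave 1212 and 1484 (0.29) at 1 probe set and 1184 and 1175 (-0.011) at the other, so its 2 probe sets did not share the difference.

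The genes that start autophagosomes and conjugate their proteins showed no ratio larger than the spread between probe sets at any compared probe set. Becn1, a subunit of the lipid kinase complex of autophagy, gave 4546 and 4441 (log2 ratio -0.034). Atg12, the ubiquitin-like protein that is joined to Atg5, gave 2057 and 2063 (0.0044) and 893 on both arrays at its second probe set, while another gave 364 and 431 (0.24). Atg5 gave 528 and 516 (-0.034) and 504 and 490.2 (-0.040) at its 2 compared probe sets. Atg7, the activating enzyme of both conjugation systems, gave 249 and 292 (0.23) and 207 and 211 (0.030). Ulk1, the kinase that starts the pathway, gave 442 and 389 (-0.18), with the opposite sign at a dimmer second probe set (149 and 175, 0.24).

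Among the Atg8 proteins, which are linked to lipid on the autophagosome, Gabarapl1 was lower on the 5ppase array by more than the spread between probe sets at both of its probe sets. It gave 4093 and 3193 (log2 ratio -0.36) and 1716 and 1273 (-0.43). Gabarap also had a negative ratio at both, but gave 10198 and 10167 (-0.0044) at its brightest probe set and 271 and 186 (-0.54) at a much dimmer one. Map1lc3a, an LC3 protein of autophagosomes, gave 2484 and 2717 (0.13). Sqstm1, the p62 receptor that brings ubiquitinated cargo to these proteins and is itself degraded by autophagy, gave 9088 and 9233 (0.023), and -0.16 at its second compared probe set.

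**Figure D2:**
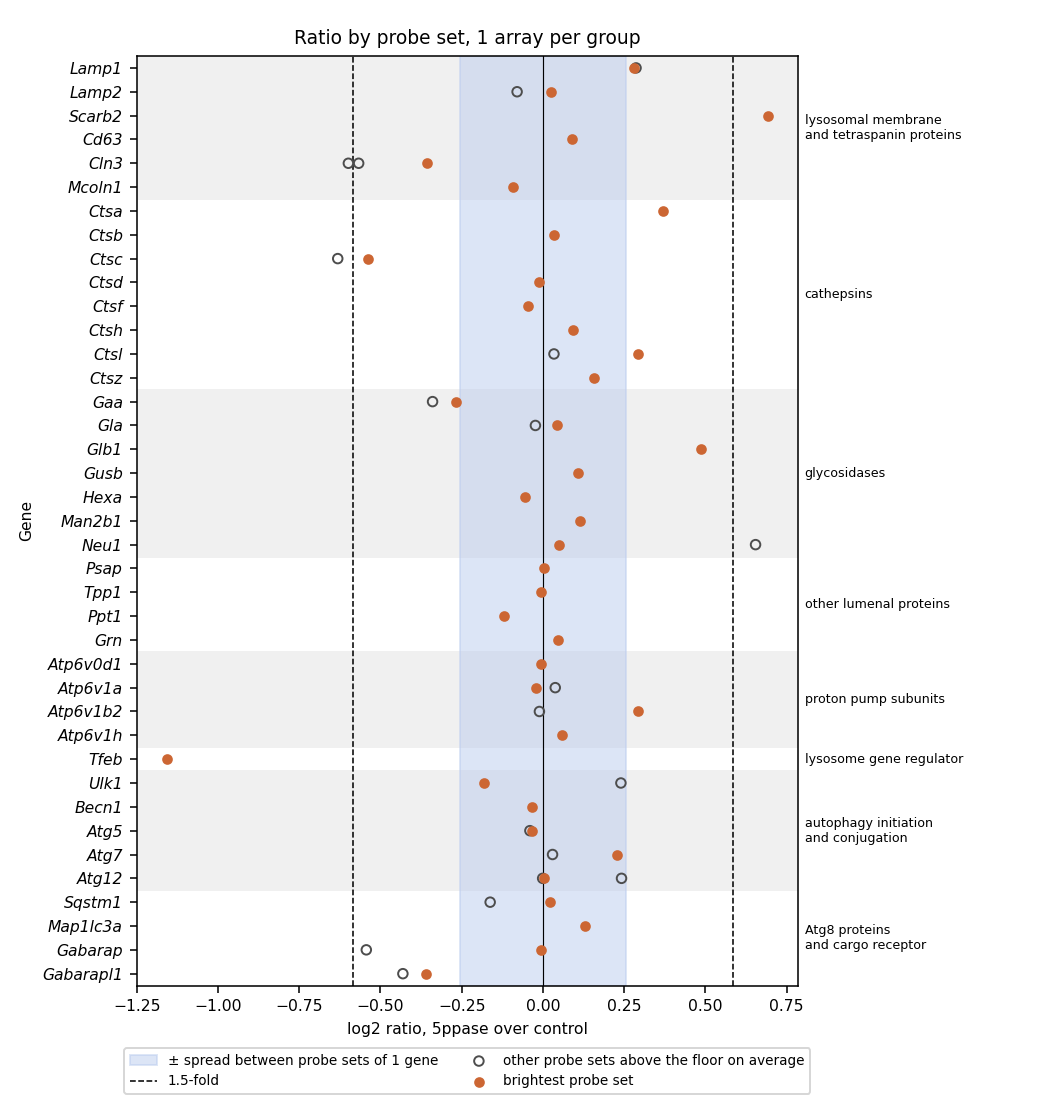
The log2 ratio of 5ppase to control for the 39 genes above the floor on average, with the brightest probe set filled and other probe sets above the floor on average open, the spread between probe sets of 1 gene (0.26) shaded and 1.5-fold dashed. Scarb2 and Tfeb lie outside the dashed lines at their only probe sets, both probe sets of Ctsc and of Gabarapl1 lie left of the shading, and those of Neu1 and Gabarap disagree.

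Over all 14 genes with 2 compared probe sets, the brighter and the next probe set had the same sign in 8 and opposite signs in 6. The median size of their difference was 0.099 on the log2 scale, and in 10 of the 14 it was under the spread of 0.26. That spread is per probe set, and a difference between 2 probe sets has a larger SD, so this cut is strict. The 4 larger differences were those of Neu1 (0.61), Gabarap (0.54), Atp6v1b2 (0.30) and Ctsl (0.26). Signs of small ratios are therefore not settled by these arrays. Ctsc, Gaa and Gabarapl1 kept 1 sign and a size above the spread at both probe sets. Probe sets of a gene read the same 2 arrays, so they are not replicates and do not show whether another culture would differ likewise.

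**Figure D3:**
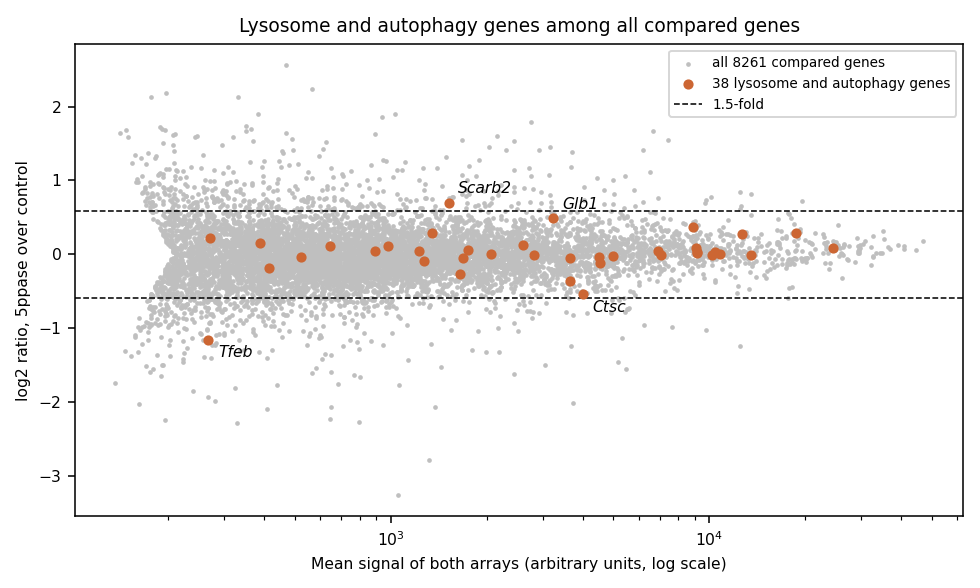
The log2 ratio of 5ppase to control against the mean signal of both arrays (log axis, arbitrary units) for all 8261 compared genes (grey) and the 38 lysosome and autophagy genes (orange), with 1.5-fold dashed. Tfeb (-1.16) and Scarb2 (0.69) lie outside the dashed lines and the other 36 inside them.

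Since Tfeb differed, the promoter windows were searched for its motif on both strands. RefSeq windows were matched for 35 of the 43 genes. The E-box core CACGTG, which reads the same on both strands, occurred in 10 of these 35 windows (28.6%), beside 8.94% of 11701 windows of genes on the array. The longer TCACGTG, which contains that core and forms the centre of the CLEAR element, occurred in 7 windows (20%), beside 5.13%. A match is a description of the letters and not a bound site. The cores lay between 190 bases before and 4 bases after the start site, and 10 of 17 began in the last 100 bases before it. The 7 genes are shown with the stretch around the first core, the 7-letter matches in capitals. CACGTGA is the same motif on the opposite strand, and a run of 8 capitals holds it on both strands.
Lamp1, chr16:83075214-83075273, minus strand: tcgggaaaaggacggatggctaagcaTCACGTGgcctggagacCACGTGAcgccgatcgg
Mcoln1, chr12:6358209-6358268, plus strand: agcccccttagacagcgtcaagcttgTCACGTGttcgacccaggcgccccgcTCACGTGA
Cln3, chr1:190597961-190598022, minus strand: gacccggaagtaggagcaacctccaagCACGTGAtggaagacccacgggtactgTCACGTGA
Ctsd, chr1:206968946-206969005, minus strand: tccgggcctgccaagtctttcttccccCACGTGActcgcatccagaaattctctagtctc
Gaa, chr10:105028261-105028320, plus strand: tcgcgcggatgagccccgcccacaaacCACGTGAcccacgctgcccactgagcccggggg
Glb1, chr8:122963591-122963650, plus strand: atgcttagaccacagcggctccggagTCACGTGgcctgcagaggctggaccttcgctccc
Atp6v0d1, chr19:50357268-50357327, minus strand: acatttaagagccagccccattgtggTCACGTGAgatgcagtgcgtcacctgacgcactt
Ratios of these genes went both ways. Glb1 (0.49) and Lamp1 (0.28), whose window holds 5 cores, had higher signals on the 5ppase array, Gaa (-0.27) a lower one, and Mcoln1 (-0.093), Ctsd (-0.012) and Atp6v0d1 (-0.0071) lay near 0. Cln3 was not compared. The median log2 ratio was -0.0095 over the 6 compared genes with the 7-letter motif and 0.034 over 24 compared genes without it.

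**Figure D4:**
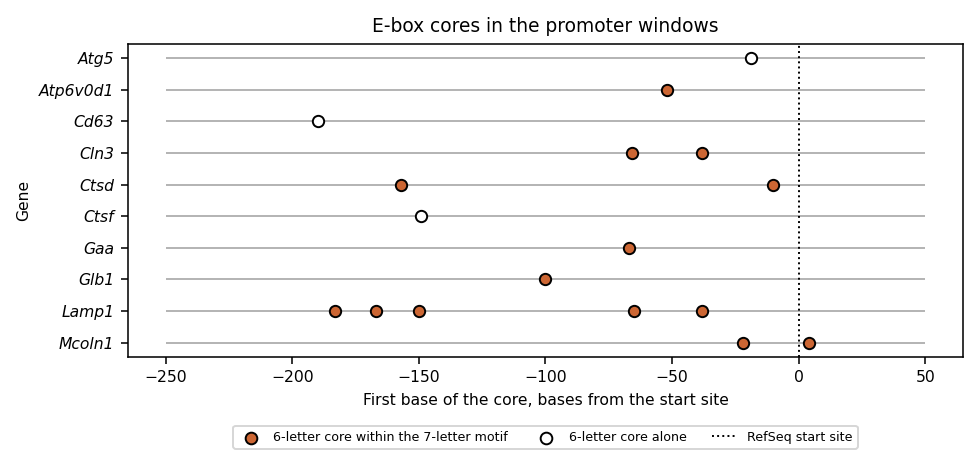
Position of each E-box core in the promoter windows of the 10 genes that hold one, as bases from the RefSeq start site (dotted), with filled points for cores within the 7-letter motif and open points for cores alone. Lamp1 has 5 cores, Cln3, Ctsd and Mcoln1 have 2 each, and the other 6 genes have 1.

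Other genes of the pathway were taken from 7 further lists with 159 genes, of which 143 were on the array and 128 compared. Of these, 1 was at least 1.5-fold higher and 3 were at least 1.5-fold lower, against background shares of 5.25% and 5.46%, and 0 were past 2-fold. The median log2 ratio was 0.0033 over 135 measured genes. The higher gene was Tpcn1, a two-pore channel that releases calcium from endolysosomes, at 835 and 1262 (0.60). The 3 lower genes were Abca2, a lipid transporter of lysosomes, at 326 and 180.4 (-0.85), Fundc1, a receptor for the removal of mitochondria by autophagy, at 1034 and 591 (-0.81), and Deptor, an inhibitor of the growth kinase mTOR, at 846 and 526 (-0.69). A second probe set of Deptor gave 188 and 139 (-0.44), and the other 3 genes had none.

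By list, the 30 other hydrolases and their cofactors had a median log2 ratio of 0.22 over 23 measured genes, 15 of them positive and 8 negative, with 0 past 1.5-fold either way. The brightest were the sulfatase Ids (8123 and 9677, 0.25) and the fucosidase Fuca1 (7585 and 6319, -0.26). Among the 15 listed hydrolases of the cathepsin and glycosidase groups that were measured, the median was 0.049. Genes that sort enzymes to the lysosome had a median of 0.13 over 14 genes, with Ap3d1, an adaptor subunit (6849 and 6449, -0.087), and Igf2r, a mannose 6-phosphate receptor (5158 and 5956, 0.21), the brightest. Other proton pump subunits had a median of -0.013 over 15 genes, with Atp6v0c, the ring subunit, at 9839 and 9753 (-0.013) and Atp6v1d at 9553 and 9207 (-0.053). Other membrane proteins and transporters had -0.050 over 16 genes. Cathepsin inhibitors had 0.11 over 4 genes, with Cst3, cystatin C, at 36010.4 and 37890.4 (0.073) and Serpinb6, listed on the array under the symbol Serpinb6a, at 6901 and 7649 (0.15). Other autophagy genes had a median of -0.12 over 36 genes, with 15 positive and 21 negative. The genes that control mTORC1 and the TFEB family had -0.032 over 27 genes. Beside these, the median over all 10255 measured genes was -0.012, with 4988 positive and 5267 negative.

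**Figure D5:**
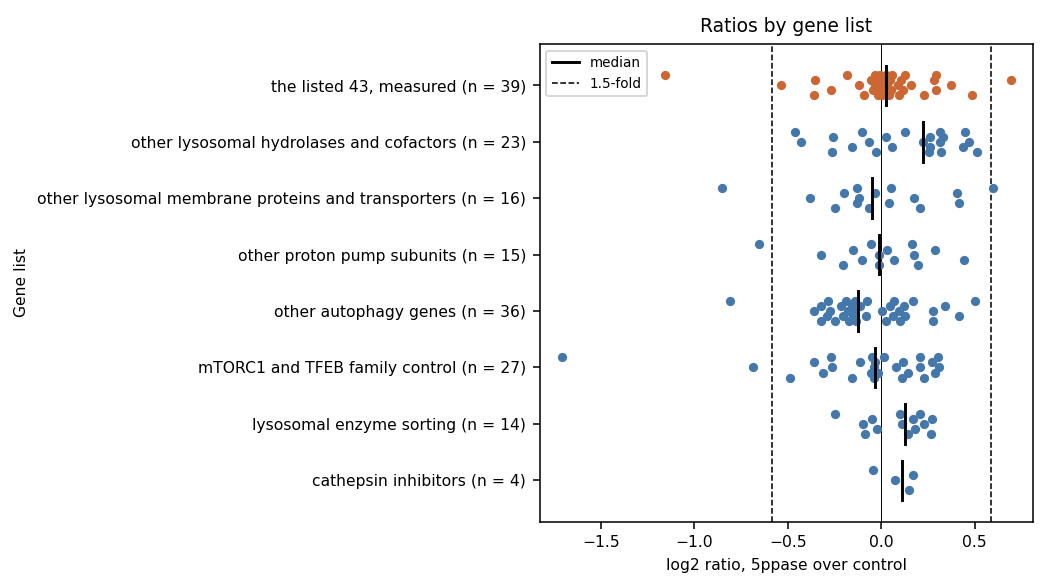
The log2 ratio of 5ppase to control for genes above the floor on average, for the 39 lysosome and autophagy genes (orange) and for 7 further lists (blue), with each list's median as a black bar and 1.5-fold dashed. The medians lie between -0.12 and 0.22, and the lowest point is Tfec, which was too dim to be compared.

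Calcineurin, the calcium-dependent phosphatase that acts on TFEB, was read through 3 of its subunit genes, named after their values were seen. The catalytic subunit genes were lower on the 5ppase array at their brightest probe sets, Ppp3ca at 4169 and 3244 (log2 ratio -0.36) and Ppp3cb at 2869 and 2384 (-0.27). Their second probe sets gave -0.14 and 0.082. The regulatory subunit gene Ppp3r1 gave 1749 and 2166 (0.31) and -0.30 at its second probe set. No subunit reached 1.5-fold at its brightest probe set, and the probe sets of Ppp3cb and Ppp3r1 disagreed in sign. The kinase gene Mtor, also named after its values were seen, gave 667 and 537 (-0.31).

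Markers of other cells differed as well, and their part in the values above was not tested. Fibroblast and meningeal markers had summed signals of 136991 in control and 128882 in 5ppase over 10 genes, led by Col1a1 (32792 and 32414). Of 8 compared, 1 was at least 1.5-fold higher, beside 5.25% of all compared genes. It was Thy1 (3311 and 6032, log2 ratio 0.87, and 1.09 at a second probe set). Likewise 1 was at least 1.5-fold lower, Pdgfra (1018 and 644, -0.66), beside 5.46%. Postn (21161 and 14111, -0.58) lay just within 1.5-fold. Dcn (1.5 and 30.6) and Lum (4.7 and 1.0), 2 defining genes of that type, were under the floor on both arrays. Neuron markers summed to 5688 and 12698 over 9 genes, of which 3 were compared. Stmn2 (3766 and 11065, log2 ratio 1.55) and Tubb3 (87.9 and 290, 1.72) were higher on the 5ppase array. Map2 (1737 and 1210.1, -0.52) was lower. Under the floor on both arrays were 6 of the 9, Snap25 (7.7 and 7.2) among them, beside 3388 of all 14218 genes. Oligodendrocyte lineage markers summed to 1414 and 1536 over 7 genes, with Cnp (996 and 737, -0.43) lower and Cspg4 (262 and 629, 1.27) higher on the 5ppase array and 4 under the floor on both arrays. Endothelial markers summed to 165 and 231 over 5 genes, with 4 under the floor on both arrays. The sum was led by Flt1 (74.1 and 127), which was too dim to be compared. A second probe set of Flt1 went the other way (88.1 and 63.3, -0.48). Astrocyte markers summed to 59200.5 and 35635 over 14 genes.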

How the data were processed

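RNeasy was used for total RNA and cRNA was labelled with biotin, per the labels' protocols, and each group has 1 array. The authors deposited a linear intensity for every probe set; the submitters' processing notes name MAS5, without version or settings. Both deposited columns have a trimmed mean of 500.2 (2% off each end), and 0 sample columns were left unused. Samples were grouped by title.

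Of 31099 probe sets, 20832 carried 1 symbol in the platform annotation, 436 several, and 9831 had none listed. Symbols were brought up to date through RefSeq gene identifiers. Signals were scaled to a common trimmed mean, raised to the floor and taken to log2. Raising dim signals to the floor understates their ratios. Analysis used Python 3.11.15, pandas 2.3.3, scipy 1.17.1 and statsmodels 0.14.6, and was tested on simulated data. With 1 array per group no test was made, and a fold rule of 1.5 or 2 stands in its place.

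The members, lists and rules were chosen with earlier results of these data known. Named members are those at least 1.5-fold apart, the 2 brightest of each role and those with unlike probe sets, and the remaining members are given for completeness. Other lists name up to 4 compared genes past 1.5-fold, or else the 2 brightest, and each marker list its brightest. Further genes are marked as picked otherwise or serve as cell type checks. A comparison of protein sequences was planned and not made. Alternatives were 4 scalings, 2 floors, a pseudocount and 3 choices of probe set. Promoter windows come from RefSeq (GRCr8), while no build is named for the values.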

Additional observations from a re-analysis of the deposited data

How the results depend on the processing

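Of the 39 measured genes, 27 kept the sign of their ratio under all alternatives that gave a value (up to 10) and 31 under the 4 other scalings. The others had ratios of at most 0.089 in size, apart from Atp6v1b2 (0.29) and Ulk1 (-0.18), which turned sign at the second probe set. Of 367 single-gene values under alternatives, 8, from 6 genes, moved by the spread between probe sets or more: Tfeb (-0.83 at the 60th percentile floor, where its 5ppase signal is raised to the floor), Neu1 (0.35 with the mean of probe sets, 0.65 with the second), Gabarap (-0.27 and -0.54), Ctsl (0.034), Atp6v1b2 (-0.011) and Ulk1 (0.24), the last 3 with the second probe set. With a pseudocount of 6.4 and no floor or filter, 3 listed genes were at least 1.5-fold and 2 at least 2-fold higher, and 4 of 143 other pathway genes were higher and 6 lower by 1.5-fold. Under that setting 14.1% of all 14218 genes were at least 1.5-fold higher and 12.6% lower, so 3 of 42 listed genes is below the background. The added listed genes are Cd68 and Ctsk, which are at or under the floor on at least 1 array. With the 60th percentile floor, 0 listed genes were 1.5-fold or 2-fold lower, because Tfeb was no longer compared. With second probe sets, available for 14 compared listed genes, 0 were 2-fold lower, and the 1.5-fold counts stayed at 1 each but came from Neu1 and Ctsc in place of Scarb2 and Tfeb, which have no second probe set, beside 6.11% higher and 6.69% lower of all 1883 genes with such a probe set. There, 0 other pathway genes were 1.5-fold higher and 1 lower, and the median of other membrane proteins and transporters was -0.53 over only 2 genes. With a common median, 0 other pathway genes were 1.5-fold higher, since Tpcn1 lay at the threshold. No paired analysis was possible because each group has 1 array, and no replicate could be left out. Signals near the floor limit what can be said of Cd68, Ctsk, Ctss, Cln3 and Tfec.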

Other observations

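Other genes known from the removal of mitochondria by autophagy, picked after their values were seen, lay within 1.5-fold. Beside Fundc1 (-0.81), the kinase gene Pink1 gave 3249 and 2654 (log2 ratio -0.29) and the receptor gene Bnip3l gave 8891 and 8077 (-0.14, and -0.19 at a second probe set). Its relative Bnip3 gave 1477 and 1609 (0.12).

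The genes of this paragraph were picked outside the naming rules of the lists, and none was past 1.5-fold. Among other hydrolases, Gm2a, the activator protein that presents ganglioside GM2 to hexosaminidase, gave 1824 and 2602 (log2 ratio 0.51). Plbd2 gave 2231 and 3024 (0.44, and 0.54 at a second probe set), and the iduronidase Idua gave 1480 and 1075 (-0.46). The iron transporter Slc11a2 gave 726 and 970 (0.42) at 1 probe set and 324 and 228 (-0.50) at the other, so its probe sets disagree.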
